A study of Mus musculus with 4 samples.

Results

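The goblet cell and mucus genes examined here are Agr2, Tff3, Muc2, Fcgbp, Zg16, Spdef, Spink4, Muc13 and Tspan8, a list of 9 named genes of intestinal mucus and of the cells that secrete it. Each was found by its symbol in the platform's probe annotation, which gave 17 probe sets among the 45101 on the array; 8 of the 9 genes are among the 12645 genes whose signal passed a low-signal filter. The RNA came from IgA-positive cells of the small intestine, sorted into cells with and cells without the integrin chain CD11b on their surface (CD11b-positive and CD11b-negative fractions), both from untreated female Balb/c mice 9 weeks old. The titles of all 4 arrays mark them as wild type (WT). Each fraction was hybridised to 2 Affymetrix arrays, 1 from 1 µg of total RNA labelled by the One-Cycle kit and 1 from 0.1 µg by the 3' IVT Express kit, which makes 1 pair of fractions per kit. The labels do not say how many mice were pooled or whether the arrays of a fraction come from separate sorts, so a p-value here speaks to the spread between these 4 arrays, and that spread may be technical.

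Goblet cells are secretory cells of the intestinal epithelium that release a mucus gel. The gel is built from the large, heavily O-glycosylated mucin Muc2, which is folded in the endoplasmic reticulum with the help of the protein disulfide isomerase Agr2 and is packed with the partner proteins Fcgbp, Zg16 and Tff3. Muc13 is a mucin that stays in the cell membrane, and Spdef is a transcription factor of goblet cell maturation. IgA-producing plasma cells are not a known source of this mucus, but they lie in the lamina propria directly beneath the epithelium, and secreted IgA is carried across epithelial cells into the mucus layer.

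Of the 9 genes, 6 had a promoter window in RefSeq on GRCm38.p6, from 250 bases before to 50 after the gene start; Tff3, Zg16 and Spink4 had none to show. The windows of Agr2 and Tspan8, which had the widest gaps between the fractions, are shown with those of Muc2 and Fcgbp, which encode the mucin and the protein bound to it. Capitals mark TTTAT, the core letters of the motif of caudal homeobox (CDX) factors of the intestine, searched on both strands, so that a match on the opposite strand reads ATAAA. The windows lie at chr12:35992675-35992974, plus strand (Agr2), chr10:115817034-115817333, plus strand (Tspan8), chr7:141690090-141690389, plus strand (Muc2), and chr7:28070986-28071285, plus strand (Fcgbp).
Agr2: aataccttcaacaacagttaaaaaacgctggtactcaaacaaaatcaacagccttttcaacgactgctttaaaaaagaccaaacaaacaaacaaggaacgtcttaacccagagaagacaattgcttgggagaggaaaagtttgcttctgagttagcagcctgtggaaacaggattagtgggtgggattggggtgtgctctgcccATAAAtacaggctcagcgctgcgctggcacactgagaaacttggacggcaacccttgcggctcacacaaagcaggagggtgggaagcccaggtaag
Tspan8: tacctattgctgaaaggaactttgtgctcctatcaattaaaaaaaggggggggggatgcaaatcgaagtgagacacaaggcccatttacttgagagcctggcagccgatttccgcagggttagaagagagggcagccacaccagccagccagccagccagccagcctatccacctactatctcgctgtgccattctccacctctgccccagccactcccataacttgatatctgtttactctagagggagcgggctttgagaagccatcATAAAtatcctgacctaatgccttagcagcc
Muc2: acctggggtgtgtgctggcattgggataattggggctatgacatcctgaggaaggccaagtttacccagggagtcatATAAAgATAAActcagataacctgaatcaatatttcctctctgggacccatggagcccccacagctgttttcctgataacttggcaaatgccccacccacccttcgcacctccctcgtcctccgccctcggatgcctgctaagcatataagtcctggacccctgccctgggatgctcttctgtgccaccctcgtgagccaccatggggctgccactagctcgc
Fcgbp: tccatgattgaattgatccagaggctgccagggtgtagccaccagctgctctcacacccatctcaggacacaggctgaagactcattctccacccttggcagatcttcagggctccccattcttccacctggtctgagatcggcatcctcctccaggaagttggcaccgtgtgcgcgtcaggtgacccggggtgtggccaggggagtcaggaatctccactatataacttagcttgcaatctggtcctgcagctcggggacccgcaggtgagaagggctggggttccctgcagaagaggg
TTTAT was found in 5 of the 7 windows of these genes (Muc13 has 2 windows), against 40.01% of all 32851 windows of the same length. In Agr2 it began 46 bases before the gene start, and Muc2 held 2 copies close together, beginning 173 and 167 bases before the start. Both Muc2 copies overlapped an AGATAA, the letters of a GATA factor's motif, beginning 169 bases before the start, and the first also overlapped a TATAAA; a second AGATAA began 159 bases before the start. AGATAA occurred in 1 of the 7 windows against 11.2% of all, TGTTTNC (FOXA factors) in 4 against 20.5%, GTTAAT (HNF1) in 1 against 7.10% and TATAAA in 1 against 13.6%. Fcgbp held none of these letters, and a match is a description of the window only.

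The comparison asks how the message of these genes differs between IgA-positive cells with and without CD11b. Itgam, the gene of CD11b, had a signal of 189 and 109 in the CD11b-positive arrays, against 28.3 and 15.8 in the CD11b-negative arrays, which goes with the labels of the sort. The deposited signals were quantile-normalized, and differences are CD11b-positive minus CD11b-negative means of log2(signal + 3). Within a pair of values, the One-Cycle array comes first and the 3' IVT Express array second. The genes of plasma cells Igha, Jchain, Mzb1 and Xbp1 were among the brightest on all 4 arrays, with Xbp1 at 8435 and 9000.1 in CD11b-positive and 8830.1 and 9033 in CD11b-negative arrays, and the 17 plasma cell genes had a median log2 difference of -0.06. The beta-actin control probe sets, whose 3' to 5' ratio grows as RNA shortens, had ratios of 1.43 and 1.61 in CD11b-positive arrays, against 1.90 and 1.84 in CD11b-negative ones. The same ratio of the GAPDH control was 0.682 and 0.71 in CD11b-positive arrays, against 0.685 and 0.704 in CD11b-negative ones. The part of RNA length in the differences below was not tested.

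All 8 goblet and mucus genes above the filter were lower in the CD11b-positive fraction than in the CD11b-negative fraction with both kits, as were 30.5% of all genes, and in none of the 8 did the arrays of the fractions overlap, which held in that direction for 17.3% of all genes. Their differences ran from -0.88 to -1.96 on the log2 scale with a median of -1.51, a 2.84-fold lower level, while the median of all 12645 genes was 0.003. Fraction means were at least 2-fold apart for 7 of the 8 genes, against 2.63% of all genes in that direction. These genes and the lists below were chosen with earlier results of these data known. The counts beside the shares of all genes therefore describe the genes and are no test of them. None passed limma's test at an adjusted p under 0.05, and neither did any other gene in either direction (0% of 12645; smallest adjusted p = 0.306). At an unadjusted p under 0.05, limma listed all 8 as lower, together with 3.52% of all genes. With the labelling kit as a block, limma called all 8 lower, against 4.14% of all genes called lower and 3.73% called higher. That blocked fit leaves each gene 1 residual degree of freedom and leans on a spread shared across genes: when that spread was not allowed to follow the signal level, it called 0 of the 8 and 0% of all genes (limma adjusted p = 0.362 for each of the 8). Because the RNA is bulk, fewer cells of a type and less RNA per cell cannot be told apart.

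**Figure D1:**
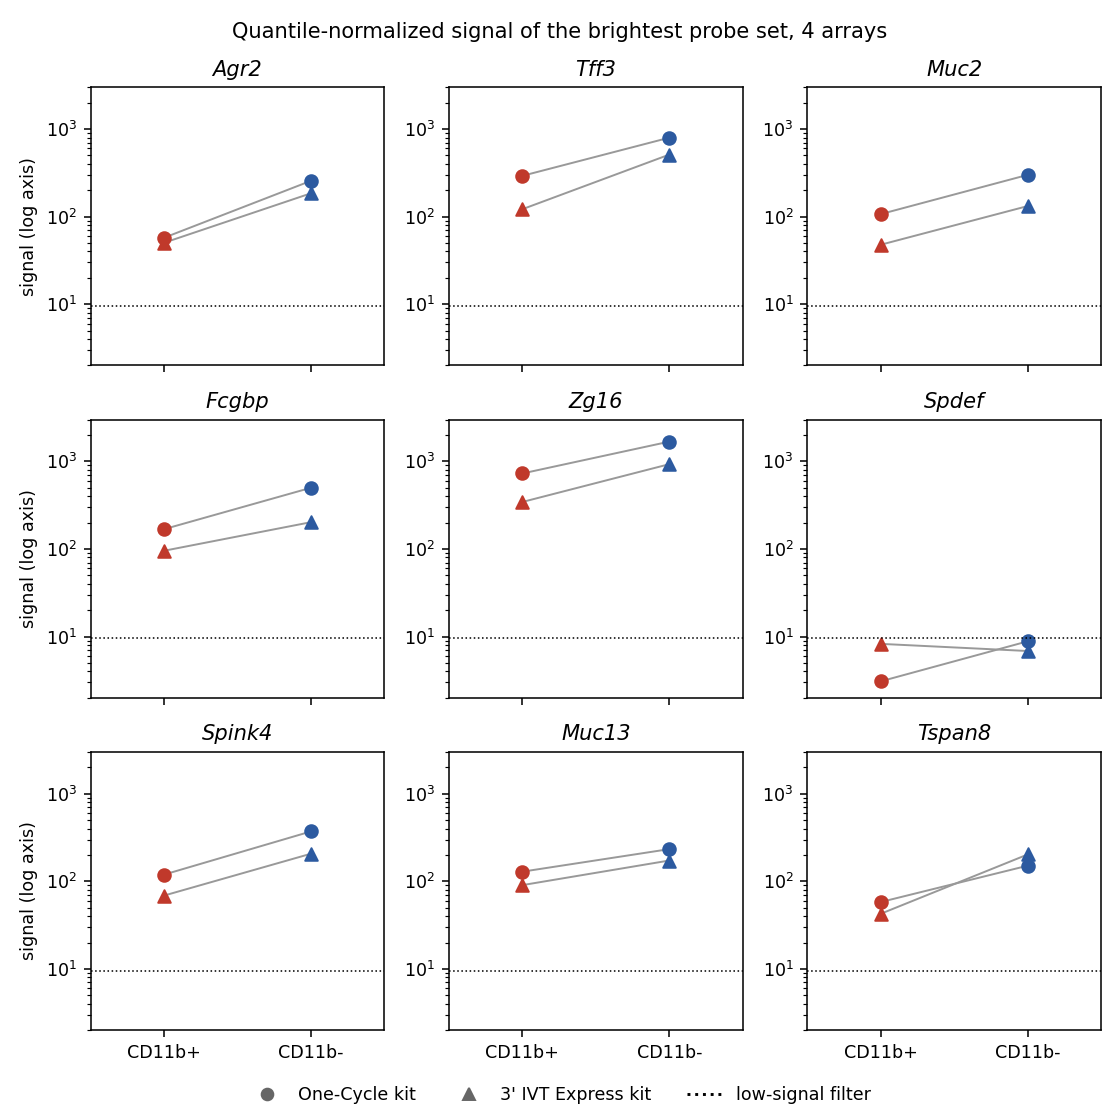
Quantile-normalized signal (log axis) of the brightest probe set of each goblet and mucus gene in the CD11b-positive (left, red) and CD11b-negative (right, blue) arrays. Circles are One-Cycle and triangles 3' IVT Express arrays, lines join arrays of the same kit, and the dotted line is the low-signal filter of 9.51; all genes except Spdef lie above it and are lower in CD11b-positive arrays.

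Both mucins of the list were lower in the CD11b-positive fraction. Muc2, the gel-forming mucin, had signals of 107 and 47.8 in the CD11b-positive arrays, against 299.7 and 132 in the CD11b-negative arrays. The highest CD11b-positive and the lowest CD11b-negative array lay 1.23-fold apart, because the One-Cycle array was higher in both fractions. Muc2 averaged 77.3 ± 41.8 in CD11b-positive and 216 ± 119 in CD11b-negative arrays (SD, n = 2 each), 2.71-fold lower, and the difference was nearly the same within the kits, at -1.46 with One-Cycle and -1.41 with 3' IVT Express. Its limma adjusted p was 0.683, and 4.14e-06 with the block. Muc13, the transmembrane mucin of the enterocyte and goblet cell surface, had signals of 129 and 90.4 in the CD11b-positive arrays, against 233 and 173 in the CD11b-negative arrays. Its difference was the smallest of the 8, 1.83-fold lower, with -0.84 and -0.91 within the kits (limma adjusted p = 0.627, and 0.00106 with the block).

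The proteins secreted with the mucin were lower as well. Fcgbp, the IgG Fc binding protein that is linked to Muc2 in the gel, had signals of 168 and 95.4 in the CD11b-positive arrays, against 499.5 and 202 in the CD11b-negative arrays. The CD11b-negative One-Cycle array stood far above the others, and the nearest arrays of the fractions lay 1.20-fold apart. The difference was -1.55 with One-Cycle and -1.06 with 3' IVT Express (limma adjusted p = 0.690, and 2.09e-06 with the block). Zg16, a lectin of goblet and other secretory granules, had signals of 728 and 344 in the CD11b-positive arrays, against 1681 and 929 in the CD11b-negative arrays, 2.49-fold lower. The difference was -1.20 and -1.43 within the kits (limma adjusted p = 0.618, and 3.29e-09 with the block). As with Muc2, the higher array of each fraction was the One-Cycle one.

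Tff3, the intestinal trefoil peptide that protects and repairs the mucosa, was among the brighter signals, at 292 and 122 in the CD11b-positive arrays, against 797 and 511 in the CD11b-negative arrays. The fractions did not overlap, with a 1.74-fold gap between the nearest arrays, and the mean difference was 3.34-fold. Within the kits Tff3 was 2.71-fold lower with One-Cycle and 4.12-fold lower with 3' IVT Express (limma adjusted p = 0.546, and 3.29e-09 with the block). Spink4, a secreted peptide of the Kazal protease inhibitor family found in goblet cells, had signals of 119 and 68.7 in the CD11b-positive arrays, against 371 and 206 in the CD11b-negative arrays. Both CD11b-positive arrays were below both CD11b-negative ones, and the kits gave -1.61 and -1.55 (limma adjusted p = 0.546, and 2.04e-07 with the block).

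Agr2, the isomerase needed to fold Muc2, had signals of 57.4 and 50.3 in the CD11b-positive arrays, against 256 and 185 in the CD11b-negative arrays. The CD11b-positive arrays were close to each other, and the nearest arrays of the fractions were 3.11-fold apart. Agr2 averaged 53.8 ± 5.01 in CD11b-positive and 220.4 ± 50.7 in CD11b-negative arrays (SD, n = 2 each), 3.89-fold lower, which ranked it 11 of the 12645 genes from the lowest difference upwards. The limma adjusted p was 0.467, and 8.93e-08 with the block. Tspan8, a tetraspanin of epithelial membranes, had signals of 58.0 and 42.6 in the CD11b-positive arrays, against 151 and 202 in the CD11b-negative arrays. Tspan8 is the 1 gene of the 8 whose CD11b-negative signal was higher with 3' IVT Express than with One-Cycle. The nearest arrays were 2.52-fold apart, and the difference was -1.33 and -2.17 within the kits (limma adjusted p = 0.467, and 2.94e-06 with the block). Agr2 and Tspan8 are the 2 genes of the 8 whose nearest arrays were at least 2-fold apart, a gap that 0.388% of all genes had in that direction.

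Spdef, the transcription factor, lay under the filter: the CD11b-positive arrays gave 3.08 and 8.25, against 8.82 and 6.84 in the CD11b-negative arrays. The fractions overlapped, and Spdef was not tested. Although some genes of the mucin, goblet product, lineage factor and mucin folding lists described below passed the filter, several lay under it as well. Ern2, the endoplasmic reticulum stress sensor of mucus-secreting epithelium, had signals of 0.57 and 5.38 in CD11b-positive and 8.13 and 4.66 in CD11b-negative arrays, and the brightest probe sets of Muc1, Muc4, Muc5ac, Muc5b, Retnlb, Agr3, Foxa3 and Creb3l4 averaged between 1.55 and 8.83. These genes were named after their values were seen.

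**Figure D2:**
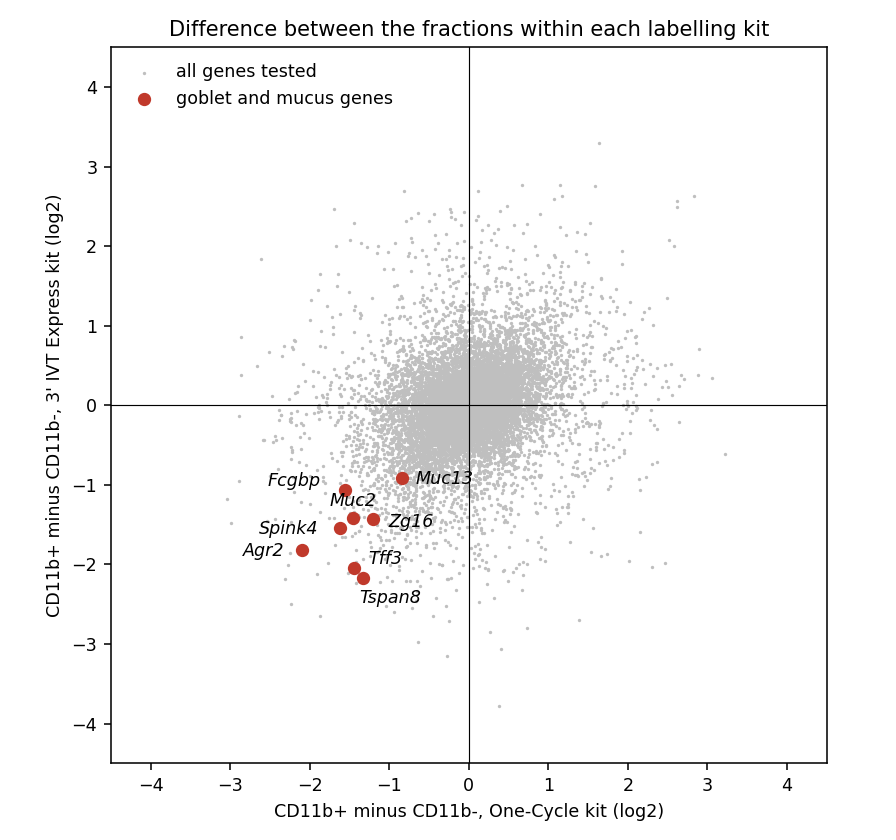
CD11b-positive minus CD11b-negative difference (log2) of every gene tested, with the One-Cycle kit on the x axis and the 3' IVT Express kit on the y axis; grey points are all 12645 genes and red points the 8 goblet and mucus genes. All 8 lie in the lower left part of the plot, where both kits give a lower CD11b-positive signal.

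The level of these genes also differed by kit. In the CD11b-positive arrays, all 8 were brighter with One-Cycle than with 3' IVT Express (median log2 difference between the kits 0.78), and in the CD11b-negative arrays 7 of 8 were (median 0.74). Over all genes, 47.4% and 49.3% were brighter with One-Cycle in these fractions. The kit difference was above 1 on the log2 scale in both fractions for Muc2 (1.11 in CD11b-positive and 1.17 in CD11b-negative arrays), and it was 0.18 and 0.47 for Agr2. Labelling kit, amount of RNA and sample of cells cannot be told apart here.

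Several genes had more than 1 probe set, and these did not always give the same size. Both probe sets of Agr2 were lower with both kits, the weaker one at a difference of -1.72. The weaker probe set of Muc13, with signals of 20.3 and 10.6 in CD11b-positive and 26.6 and 30.2 in CD11b-negative arrays, gave -0.81. For Zg16 the 3 probe sets gave -1.31, -0.92 and -0.45 in order of brightness. The names of the 2 brighter ones mark possible cross-hybridisation, and the dimmest had signals of 120.0 and 74.4 in CD11b-positive and 123 and 139 in CD11b-negative arrays, a difference of -0.03 with One-Cycle and -0.88 with 3' IVT Express. With both of the brighter probe sets left out, Zg16 was at -0.45. The names of the brighter Muc13 probe set and of the weaker Agr2 probe set also mark possible cross-hybridisation. Tspan8 had 5 probe sets, of which the 2 brightest were lower with both kits (-1.75 and -0.92). The other 3 had mean signals of 21.5, 12.1 and 9.55 and differences of 0.05, -0.13 and 0.18, with kits going opposite ways. With the mean of all its probe sets Tspan8 was at -0.52. Of the 15 probe sets of these genes above the filter, 13 were lower with both kits and without overlap of the fractions, and the 2 exceptions were of Tspan8.

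**Figure D3:**
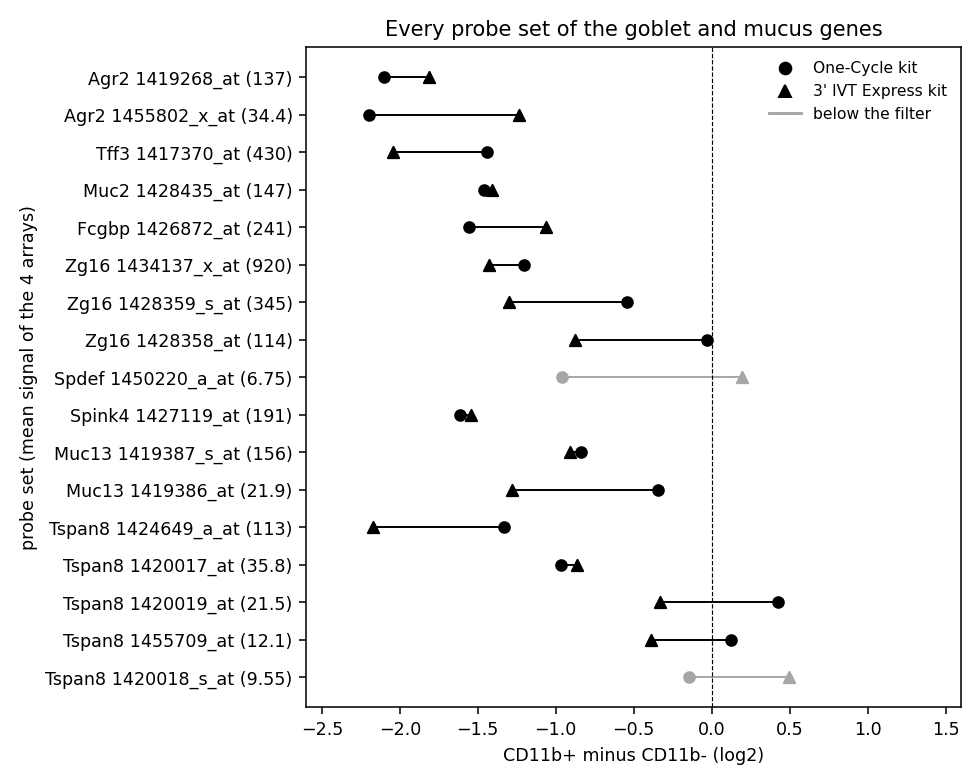
CD11b-positive minus CD11b-negative difference (log2, x axis) of each of the 17 probe sets of the goblet and mucus genes, with the mean signal of the 4 arrays in brackets; circles are the One-Cycle and triangles the 3' IVT Express kit, and grey marks probe sets below the filter. Agr2, Tff3, Muc2, Fcgbp, Spink4, Muc13 and Zg16 lie left of 0 with both kits, while 3 of the 5 Tspan8 probe sets and Spdef straddle it.

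Single arrays set the size of some differences. Without CD11b-positive replicate 2 (3' IVT Express), Tff3 was at -1.12, Muc2 at -0.88 and Zg16 at -0.78. Without CD11b-negative replicate 1 (One-Cycle), Muc2 was at -0.85 and Fcgbp at -0.66. Without CD11b-positive replicate 1, limma called 24 genes over all, 23 of them lower, among them Agr2 (-2.05, adjusted p = 0.0379), Tff3 (-2.36, adjusted p = 0.00654) and Zg16 (-1.85, adjusted p = 0.0159); without CD11b-positive replicate 2 it called 4 genes, none of them of this list. Leaving out 1 array makes the kits uneven between the fractions, and the single array left in a fraction is assumed to vary like the other fraction. Without any 1 array, all 8 genes stayed lower in the CD11b-positive fraction. This sign could not have changed, because each gene's higher CD11b-positive signal was already under its lower CD11b-negative one. Only the sizes of the differences are informative here.

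The wider mucus programme was set beside these genes through lists chosen by function. Of 13 other secreted mucus and goblet cell products, 9 passed the filter; 6 were lower with both kits, against 30.5% of all genes, and 2 were higher with both, against 31.6%. Their median difference was -0.20. The 3 that limma called lower with the block were Guca2a (guanylin, a peptide that regulates intestinal fluid; 36.8 and 42.8 in CD11b-positive against 100.2 and 134 in CD11b-negative arrays, adjusted p = 0.0001), Itln1 (intelectin; 80.6 and 45.4 against 137 and 100.3, adjusted p = 0.00683) and Clca1, a mucus metalloprotease (36.9 and 11.7 against 55.1 and 47.5, adjusted p = 0.0414), which was named after its values were seen. None passed limma without the block, and with the block 4.14% of all genes were called lower. The other trefoil peptides, known from the stomach, were also measured, and their difference from Tff3 was not tested. Tff1 was lower with both kits (-0.23 and -0.14) but its fractions overlapped; it had signals of 143 and 86.4 in CD11b-positive and 168 and 95.2 in CD11b-negative arrays (limma adjusted p = 0.961). Tff2 had 67.1 and 591 in CD11b-positive and 187 and 118 in CD11b-negative arrays (limma adjusted p = 0.964), so 1 CD11b-positive array was the highest and the other the lowest.

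Of 13 other mucins, 8 were on the array and 2 passed the filter. Muc3, a membrane mucin of enterocytes, had signals of 59.6 and 35.2 in CD11b-positive and 79.3 and 68.2 in CD11b-negative arrays. Muc20, another membrane mucin, had 375 and 511 in CD11b-positive and 320.4 and 342 in CD11b-negative arrays. Neither passed limma with the block (adjusted p = 0.145 and 0.0585), and their differences had opposite signs, -0.65 for Muc3 and 0.40 for Muc20.

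Transcription factors of goblet, secretory and intestinal epithelial cells had a median of -0.61 over 11 genes, 7 of them lower and 0 higher with both kits. With the block limma called 4 lower and 0 higher, none without it, where over all genes 30.5% were lower with both kits and 4.14% called lower with the block. Those 4 are the brightest of the list. Hnf4a, a nuclear receptor of enterocyte identity, had signals of 75.8 and 22.3 in CD11b-positive and 169 and 87.3 in CD11b-negative arrays (limma adjusted p = 0.00012 with the block). Hes1, a Notch target, had 58.8 and 82.7 in CD11b-positive and 119 and 251 in CD11b-negative arrays. Elf3, an epithelial ETS factor, had 174 and 67.7 in CD11b-positive and 332 and 179 in CD11b-negative arrays, and Gfi1, which acts in secretory progenitors and also in blood cells, 285 and 216.5 in CD11b-positive and 448 and 324 in CD11b-negative arrays. Atoh1, the factor that commits cells to the secretory lineage and named after its values were seen, had 37.8 and 22.1 in CD11b-positive and 53.0 and 15.9 in CD11b-negative arrays, with overlap.

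Genes of the machinery that mucus secretion uses had medians nearer to 0; the difference between the lists was not tested. Of 14 genes of mucin folding and granule secretion, limma called 0 with the block (median -0.27, 7 lower and 2 higher with both kits). Their differences ran from -1.21 to 0.42. Best2, Bcas1 and Capn9, named after their values were seen, were at -1.21, -1.18 and -0.97, inside the range of the 8 genes. Their signals were weak, and each was under the filter of 9.51 in the CD11b-positive One-Cycle array. For Bcas1 the fractions overlapped and the kits went opposite ways, at -2.47 with One-Cycle and 0.11 with 3' IVT Express. Best2 and Capn9 were lower with both kits and without overlap. The granule fusion protein gene Vamp8 had signals of 522 and 605 in CD11b-positive and 644 and 679 in CD11b-negative arrays, and Qsox1, a sulfhydryl oxidase, 116 and 115.6 in CD11b-positive and 114 and 82.8 in CD11b-negative arrays. Of 19 genes of mucin-type O-glycosylation and related glycosylation (the list also holds Fut8, which acts on N-glycans), 1 was called lower and 1 higher with the block (median -0.13), a share near that of all genes (4.14% lower and 3.73% higher), so nothing about the list is read from them. Those genes were C1galt1, the core 1 galactosyltransferase, higher in the CD11b-positive fraction at 456 and 457 against 253 and 345 (limma adjusted p = 0.0028 with the block, 0.683 without), and Galnt2, which starts O-glycans, lower at 691 and 626 against 1114 and 730.3 (0.0121 with the block, 0.820 without). Plasma cells also use some of this machinery, and the part of this in the medians was not tested. Of 18 other tetraspanins, limma called 3 lower and 0 higher with the block (median -0.22). Their differences ran from -1.19 to 1.07. With both kits 11 were lower and 3 higher, against 30.5% and 31.6% of all genes. Cd81, a B cell coreceptor subunit, was one of the 3 called lower, at 751 and 886 in CD11b-positive and 1232 and 1243 in CD11b-negative arrays.

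**Figure D4:**
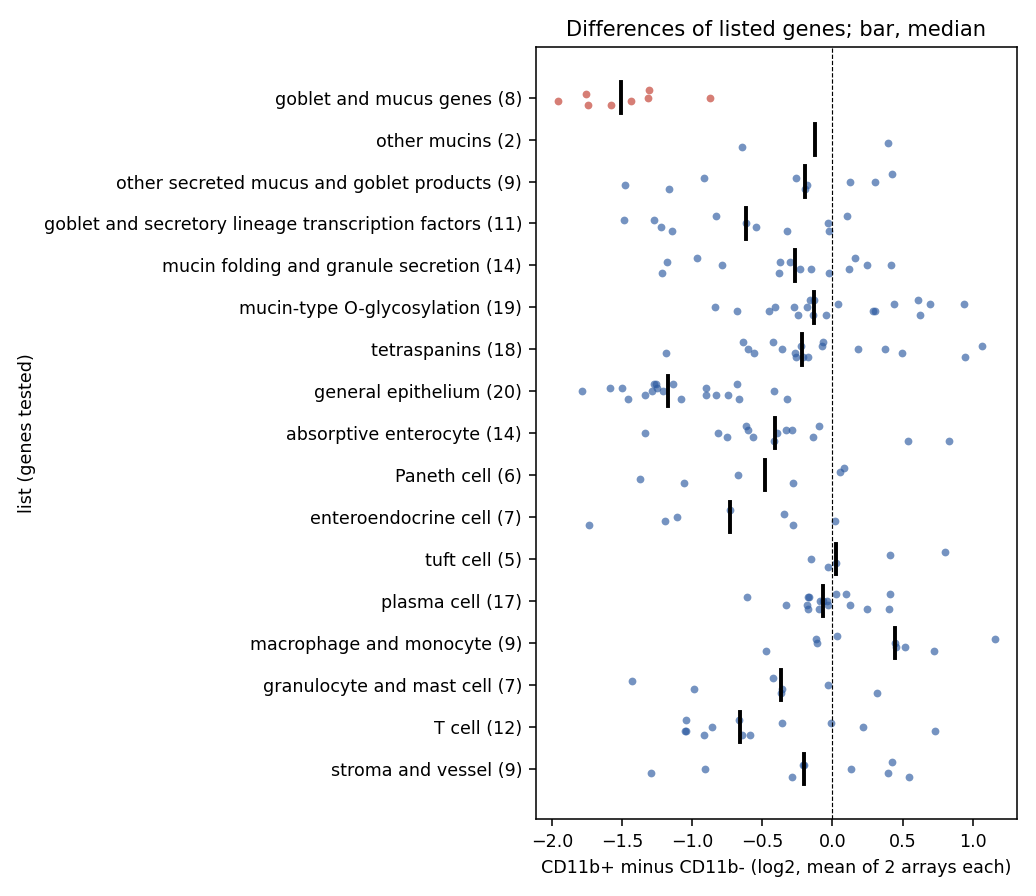
CD11b-positive minus CD11b-negative difference (log2, x axis) of each tested gene (points) of the goblet and mucus genes (red) and of 16 other lists (blue), with the number of genes tested in brackets and the median as a black bar. The medians are -1.51 for the goblet and mucus genes, -1.17 for general epithelium and -0.06 for plasma cell genes.

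Markers of the whole gut epithelium were lower together with the goblet genes. All 20 general epithelial genes passed the filter, all 20 were lower with both kits (30.5% of all genes were) and 16 were called lower by limma with the block (4.14% of all genes were), 0 without it. Their summed signal was 4358 and 3354 in the CD11b-positive arrays, against 7835 and 8355 in the CD11b-negative arrays, 2.10-fold lower over the fraction sums; the 8 goblet and mucus genes summed to 1659 and 861 in CD11b-positive and 4288 and 2540 in CD11b-negative arrays, 2.71-fold lower. Epcam, the epithelial adhesion molecule, had signals of 377 and 384 in CD11b-positive and 600.0 and 613 in CD11b-negative arrays, and Krt8, a keratin of simple epithelia, 425 and 253 in CD11b-positive and 952 and 914 in CD11b-negative arrays. The median within the kits was -0.82 with One-Cycle and -1.51 with 3' IVT Express for general epithelium, and -1.45 and -1.49 for the goblet and mucus genes. None of the 20 was below the filter, and the part of other epithelial cells in the goblet gene differences was not tested.

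Markers of single epithelial cell types had medians between those of goblet and plasma cell genes, apart from tuft cells. The 14 absorptive enterocyte genes had a median of -0.41 and a summed signal of 2253 and 1679 in CD11b-positive, against 2780 and 2967 in CD11b-negative arrays; limma called 3 of them lower with the block, against 4.14% of all genes. Fabp1, a fatty acid carrier, was one of these, with 437 and 370 in CD11b-positive and 614 and 819 in CD11b-negative arrays. The list was not uniform: its differences ran from -1.34 to 0.83. Fabp2, another fatty acid carrier, had 428.9 and 391.8 in CD11b-positive and 401.1 and 729.7 in CD11b-negative arrays, and Apoa1, an apolipoprotein, was at -0.10. Slc15a1, a peptide transporter named after its values were seen, was higher with both kits. The 6 Paneth cell genes tested had a median of -0.48, with a sum of 1059 and 812 against 1647 and 1542, and 2 were called lower with the block, among them Lyz1 (721 and 502 in CD11b-positive, 1016 and 913 in CD11b-negative arrays). The name of the Lyz1 probe set marks possible cross-hybridisation. Enteroendocrine genes had -0.73 over 7 genes of 14 on the array (sums of 125 and 67.4 against 200.2 and 170.2), with 1 called lower with the block. Tuft cell genes had 0.02 over 5 genes (107 and 113 against 110.3 and 86.0), with 0 called.

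Among markers of other cells, the 12 T cell genes had a median of -0.66 and a summed signal of 2941 and 1571 in CD11b-positive, against 5774 and 2245 in CD11b-negative arrays. With the block limma called 5 of them lower. Over all genes it called 4.14% lower and 3.73% higher, the shares to set beside the counts below as well. Macrophage and monocyte genes had 0.45 over 9 genes (2133 and 1857 against 2747 and 2220), and the median and the sums thus differ in sign. The 1 gene called lower was Ctss, the brightest of the list, at 1563 and 1483 against 2365 and 1896.5. With both kits, 3 of the 9 genes were lower and 4 higher. Of the next brightest, Lyz2 (219 and 98.0 against 136 and 76.2) and Cd68 (50.5 and 66.5 against 29.6 and 57.7) were higher with both kits. Their fractions overlapped, and Csf1r was at -0.11. Granulocyte and mast cell genes had -0.37 over 7 genes (284.5 and 190.4 against 399 and 276), 4 of them lower and 1 higher with both kits. The 1 gene called lower was Prg2, at 28.7 and 33.2 against 86.2 and 90.0. S100a8, S100a9 and Siglecf, named after their values were seen, were below the filter. Stromal and vessel genes had -0.20 over 9 genes (234.5 and 247 against 215 and 290), with 0 called. The plasma cell genes summed to 83644 and 80694 in CD11b-positive and 85526 and 84133 in CD11b-negative arrays, with 2 called lower and 2 higher with the block. Quantile normalization gives equal ranks equal signals, which draws together sums led by the brightest genes. Jchain, for example, had 12201.6 in both 3' IVT Express arrays.

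By the mean absolute distance between log2 values centred on each gene's mean over the 4 arrays, the genes nearest to the mean profile of the 8 were 1700061N14Rik (distance 0.0667), Fosb (0.0803), Tmem45b (0.0851), Znrf4 (0.0975), Rnf138rt1, Marchf4, Sox4, Lgals4, Pde5a and Ugt2b34 (0.135). Several of these genes had CD11b-positive signals near or under the filter of 9.51. These were 1700061N14Rik (13.6 and 7.53), Znrf4 (6.84 and 3.42), Rnf138rt1 (17.1 and 8.99), Marchf4 (9.31 and 3.03), Sox4 (14.7 and 9.21) and Pde5a (15.4 and 5.09). Lgals4 is a galectin of intestinal epithelium, and Fosb an immediate early transcription factor. Lgals4 had signals of 266 and 133 in CD11b-positive and 529.8 and 404 in CD11b-negative arrays, and Fosb 581 and 363.5 in CD11b-positive and 1395 and 971 in CD11b-negative arrays. Among the 8 themselves, Spink4 lay closest to their mean profile (0.0657) and Tspan8 farthest (0.355). With 4 arrays such a ranking describes these arrays and no more.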

How the data were processed

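The authors deposited 1 intensity value per probe set on a linear scale for each array, with MAS5 and Expression Console named in the submitters' processing notes; the version and the scaling target were not stated. The table holds 45101 probe sets, of which 64 are controls, 34945 name 1 gene, 932 several and 9160 are unnamed here. All 9 gene symbols matched the RefSeq gene table by identifier. The members and lists were chosen with earlier results of these data known.

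Deposited array medians (18.3 and 17.5 in CD11b-positive, 14.7 and 16.1 in CD11b-negative arrays) differed, so signals were quantile-normalized without controls. Probe sets whose mean over the arrays, taken on log2(signal + 3), was above the 40th percentile (9.51) were kept, and the brightest per gene was used. With lmFit and eBayes (trend, 2-sided) of limma 3.58.1, R 4.3.3 tested 12645 genes with Benjamini-Hochberg adjustment at 0.05; the code was tested on simulated data. An exact permutation test of 2 against 2 arrays cannot go below p = 0.333. The labels name the labelling kit, shared by 1 array of each fraction, and deviations of same-kit arrays from their fraction means correlated across genes (r = 0.387), so the fit with the kit as a block is printed beside the other. Named genes were the 9, Itgam, the up to 4 brightest tested genes of each list, and the 10 nearest in profile; exceptions are marked. Alternatives were pseudocounts, scalings, filters, probe set rules, the variance model, the block and each array left out. The number of arrays limits the precision.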

Additional observations from a re-analysis of the deposited data

Results flagged for a closer look

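For 4 probe sets of these genes the CD11b-positive minus CD11b-negative difference had opposite signs with the 2 labelling kits; the difference between the kits was not tested, since each kit holds 1 array per fraction. For Spdef the One-Cycle difference minus the 3' IVT Express difference was -1.15 on the log2 scale, with all 4 signals under 9 and below the filter, so the value describes weak signals only. For the weaker Tspan8 probe sets it was 0.76 (mean signal 21.5), 0.51 (mean signal 12.1) and -0.64 (mean signal 9.55).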

How the results depend on the processing

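The median of the 8 goblet and mucus genes stayed negative under every alternative in which it was computed (not for the fit per probe set or the added block without trend), from -1.98 to -1.01 on leaving out 1 array. On the signals as deposited the median of all genes moved to 0.42 and after centring on the array median to 0.21. Relative to these shifts the goblet median was -1.47 under both. Alternatives that changed only the filter, the block or the variance model, and the fit per probe set, left each gene's difference as it was. Leaving out 1 array cannot reverse a gene whose fractions do not overlap. Under all of those alternatives the direction was fixed in advance. All 144 values of single genes under 18 alternatives were lower in the CD11b-positive fraction, 133 of them on the same side of the threshold as without the block. The 11 others passed it, 8 with the labelling kit as replicate block and 3 without CD11b-positive replicate 1. Without the block, adjusted p-values ran from 0.00654 (Tff3) upwards over the alternatives. The number of genes called over all genes was 0, against 996 with the labelling kit as replicate block, 0 with that block and eBayes without trend (an alternative added after seeing the data), and 0 to 24 on leaving out 1 array (24 without CD11b-positive replicate 1 and 4 without CD11b-positive replicate 2). The cause was not tested. Signal over background limits Spdef and the weak Tspan8 probe sets.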

Other observations

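In the CD11b-negative arrays the goblet and mucus genes were brighter with the One-Cycle kit (median log2 difference between the kits 0.74, 7 of 8 genes), while the 20 general epithelial genes had a median of -0.0002, with 10 of 20 brighter. In the CD11b-positive arrays the medians were 0.78 and 0.36. Other secreted mucus and goblet products had 0.66 in CD11b-positive arrays, against 0.65 in CD11b-negative ones. The difference between the lists was not tested.

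Chgb, a granule protein of enteroendocrine cells, had signals of 32.1 and 10.3 in CD11b-positive and 85.5 and 56.0 in CD11b-negative arrays (limma adjusted p = 0.000694 with the block, 0.610 without), and Defa31, a Paneth cell defensin, had 169 and 183 in CD11b-positive and 468 and 448 in CD11b-negative arrays (limma adjusted p = 1.08e-07 with the block, 0.467 without). The name of the Defa31 probe set marks possible cross-hybridisation. Chgb and Defa31 had the lowest differences of their lists. The next brightest genes, Sst of the enteroendocrine and Reg3g of the Paneth cell list, were at 0.02 and 0.09. With both kits, 5 of 7 enteroendocrine and 4 of 6 Paneth cell genes were lower and 0 higher (30.5% of all genes were lower). The enteroendocrine median was -0.19 with One-Cycle and -0.99 with 3' IVT Express.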
